A study of Homo sapiens with 10 samples.

Results

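BRG1, the product of SMARCA4, was expressed from a plasmid in cells that the study describes as deficient in SWI/SNF, and the RNA of these cells was compared with that of cells given an empty vector. The comparison holds 4 of the 10 libraries of the series, 2 transfected with pBJ5-BRG1 (BRG1-wt) and 2 transfected with pOPRSVI (control), taken by the plasmid named in the labels. All libraries were made from C33A cells, an established human cervical carcinoma line, 48 h after transient transfection. The other 6 libraries, 2 each of BRG1-mut (pBJ5-BRG1-K798R), BRM-wt (pCG-hBrm) and BRM-mut (pCG-hBrm-K798R), were used only where their tables shed light on the BRG1-wt values. The control plasmid has a backbone other than pBJ5, so that the ATPase and the backbone cannot be told apart in this comparison. The labels do not say whether the replicates came from separate cultures, and 2 libraries against 2 allow no two-sided permutation p under 0.333. Accordingly, no test was made, and the results below are values in each library or in each table.

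SWI/SNF complexes use the energy of ATP to move or evict nucleosomes, and BRG1 or its close relative BRM (SMARCA2) is the catalytic subunit of each complex. They act at promoters and enhancers, where they open chromatin for transcription factors, and they have also been linked to the choice of exons during splicing. In a cassette exon event, an internal exon is either kept in the mRNA or skipped together with its flanking introns. The share of transcripts that keep the exon is called PSI (percent spliced in, here a fraction from 0 to 1). A cassette exon within coding sequence leaves the reading frame intact when its length is divisible by 3.

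The exons on which the splicing results below turn are shown here with the last 20 bases of the upstream intron and the first 6 bases of the downstream intron in lower case and the exon in capitals, as read 5′ to 3′ from the GRCh37 genome. SMARCA4 is the gene of the transfected ATPase, BNC2 had a large rise, YBX1, which encodes an RNA-binding cold-shock protein, had a fall, MYL6 and GADD45A were followed up by the study, and PBRM1 encodes a SWI/SNF subunit whose exon went in opposite directions in the replicates.
SMARCA4, chr19:11144443-11144541 (+ strand): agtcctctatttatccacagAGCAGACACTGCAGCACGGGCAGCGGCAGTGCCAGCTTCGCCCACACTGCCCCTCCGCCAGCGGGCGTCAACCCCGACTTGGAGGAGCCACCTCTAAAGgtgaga
BNC2, chr9:16738358-16738483 (- strand): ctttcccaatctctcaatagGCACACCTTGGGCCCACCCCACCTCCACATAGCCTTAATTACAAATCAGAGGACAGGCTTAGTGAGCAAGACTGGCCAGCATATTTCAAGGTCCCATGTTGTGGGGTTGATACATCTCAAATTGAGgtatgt
YBX1, chr1:43161870-43161959 (+ strand): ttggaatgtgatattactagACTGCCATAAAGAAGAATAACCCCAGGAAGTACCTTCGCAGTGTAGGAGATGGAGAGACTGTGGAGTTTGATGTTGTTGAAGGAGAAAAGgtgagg
MYL6, chr12:56554410-56554454 (+ strand): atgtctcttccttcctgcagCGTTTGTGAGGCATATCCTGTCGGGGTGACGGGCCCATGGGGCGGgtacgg
GADD45A, chr1:68151708-68151809 (+ strand): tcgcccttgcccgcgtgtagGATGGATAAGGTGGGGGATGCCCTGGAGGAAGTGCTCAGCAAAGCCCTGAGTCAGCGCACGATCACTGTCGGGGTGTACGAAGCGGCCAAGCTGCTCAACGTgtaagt
PBRM1, chr3:52588740-52588895 (- strand): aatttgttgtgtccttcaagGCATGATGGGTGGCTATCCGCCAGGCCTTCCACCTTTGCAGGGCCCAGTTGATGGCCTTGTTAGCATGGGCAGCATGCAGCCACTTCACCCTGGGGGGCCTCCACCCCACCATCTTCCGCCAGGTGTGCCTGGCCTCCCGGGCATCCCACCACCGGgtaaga
In each of these exons the intron ended in AG and the next intron began with GT, which held for 930 of the 947 listed exons (98.2%). All of the exons shown have lengths divisible by 3 (99, 126, 90, 45, 102 and 156 bp).

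The deposited splicing tables listed 947 distinct exons (970 events) for BRG1-wt against control, of 2969 distinct exons (3102 events) in all 8 tables of the series. Each table sets 1 library of an ATPase beside 1 control library, matched by replicate number, and holds only events above a threshold of the authors' splicing tool, so that the PSI difference within a table chose the exon and is given as a description. The table of replicate 1 held 616 exons, of which 342 had a higher PSI in BRG1-wt (55.5%, exact 95% binomial interval 51.5 to 59.5%). The table of replicate 2 held 388 exons, of which 218 were higher (56.2%, 51.1 to 61.2%). These intervals cover counting error only. The absolute PSI difference had a median of 0.24 in both replicates and reached 0.82 in replicate 1 and 0.77 in replicate 2. Exons with a higher PSI started low, with a median of 0.31 in control and 0.715 in BRG1-wt of replicate 1, and 0.305 and 0.775 in replicate 2. Exons with a lower PSI had a median of 0.65 in control and 0.24 in BRG1-wt in replicate 1, and 0.63 and 0.20 in replicate 2. The exons thus moved across the middle of the scale in many cases, with 230 of 616 on the other side of 0.5 in replicate 1 and 140 of 388 in replicate 2. The number of reads behind a PSI value is unknown, since the tables give none, and no interval was computed for a single PSI.

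Few exons were listed in both replicates. The 57 shared exons made up 9.25% of the exons of replicate 1 and 14.7% of those of replicate 2. Since the tables of the replicates share no library, the direction in one was not fixed by the other. Of the 57 exons, 30 went in the same direction (52.6%, exact 95% interval 39.0 to 66.0%), 17 with a higher and 13 with a lower PSI in BRG1-wt. In 24 of the 57 exons (42.1%) both BRG1-wt values lay outside the range of the control values on the same side, 12 above and 12 below. In random order, 2 against 2 values separate in this way with a probability of 0.333. The exons were also chosen by the PSI differences within the tables, so the count is given as a description. In the 27 exons with opposite directions the 2 control libraries differed by a median of 0.29 in PSI, against 0.09 in the 30 exons with the same direction. BRG1-wt 1 was nearer to control 2 than to control 1 in 25 of the 27 exons, but also in 23 of the 30. BRG1-wt 2 was nearer to control 1 than to control 2 in 26 of the 27 and in 3 of the 30. A choice by opposite directions favours such values, so these counts are given as a description. The following examples were picked after their values were seen. The 42-bp exon 4 of BMAL2, a circadian transcription factor, had 0.58 in control 1 and 0.57 in BRG1-wt 2, but 0.14 in control 2 and 0.15 in BRG1-wt 1. Exon 2 of PSMD12, a proteasome subunit, had 0.63 and 0.49 in control 1 and BRG1-wt 2, but 0.06 in both control 2 and BRG1-wt 1. In both exons each BRG1-wt library resembled the control of the other replicate. The cause of this likeness was not tested. In the remaining 6 exons the direction was shared but the groups overlapped, as in OGG1, a DNA glycosylase, with 0.25 and 0.80 in control and 0.56 and 0.98 in BRG1-wt.

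**Figure D1:**
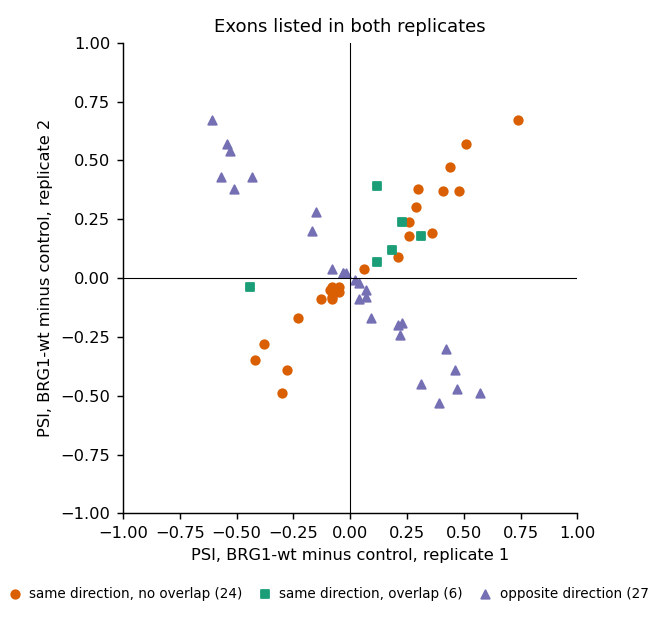
PSI in BRG1-wt minus control in replicate 1 (horizontal axis) and replicate 2 (vertical axis) for the 57 exons listed in both replicates, 1 point per exon, with the symbol giving the direction and whether BRG1-wt and control values overlap. The 27 exons with opposite directions run along the falling diagonal and the 30 with the same direction lie in the other quadrants.

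SMARCA4 itself held the largest difference among the 24 exons without overlap. Its exon 27 of 35 (99 bp, coding, chr19:11144443-11144541) had a PSI of 0.11 in control 1 and 0.03 in control 2 but 0.85 and 0.70 in BRG1-wt 1 and 2. Both BRG1-wt values stood far above both controls. In the tables of BRG1-mut, which carries the same cDNA but for the ATPase site, the same exon had 0.77 and 0.79, and in BRM-wt 2 it had 0.32. RNA from the plasmid and RNA from the gene of the cell cannot be told apart in these reads.

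The other exons that rose without overlap belonged to genes of varied roles. In UGP2, which makes UDP-glucose, the 61-bp exon 2 in the 5′ UTR had 0.24 in both controls and 0.75 and 0.81 in BRG1-wt. In BNC2, a zinc finger protein, the coding exon 2 of 126 bp had 0.37 and 0.42 in control and 0.81 and 0.89 in BRG1-wt. In ECSIT, an adaptor of signalling and of mitochondrial complex I assembly, the partly coding exon 2 had 0.10 and 0.28 in control and 0.51 and 0.65 in BRG1-wt. In these 3 genes the BRG1-wt libraries lay at least 0.23 above the higher control. In the other ATPase groups, the exon of UGP2 had 0.88 in BRM-mut 2, and that of ECSIT had 0.49 and 0.62 in BRG1-mut. The BNC2 exon was listed for no other group. Exon 12 of SUGP2, a protein with RNA-binding SURP domains, had 0.46 and 0.29 in control and 0.72 and 0.53 in BRG1-wt. Exon 2 of CDCA3, a mitotic entry factor, had 0.62 and 0.77 in control and 0.88 and 0.95 in BRG1-wt. Exon 2 of CCNL2, a cyclin of splicing-related kinases, had 0.76 and 0.89 in control and 0.97 and 0.98 in BRG1-wt. In these 3 genes the gap between the groups was 0.07 to 0.11. The 4 exons of NPIPB12 and NPIPB13 also rose, for example from 0.12 and 0.18 to 0.60 and 0.55 in the 86-bp form of NPIPB13. These sequences occur 15 times (86 bp) and 5 times (277 bp) in the genome, so that the gene behind the reads is uncertain.

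Of the exons that fell without overlap, that of TBC1D5 had the largest mean fall among annotated exons with a single copy in the genome. Exon 2 of TBC1D5, a Rab GTPase-activating protein, had 0.55 and 0.46 in control and 0.13 and 0.11 in BRG1-wt. The 127-bp exon 2 of ZNF721, a zinc finger gene, had 0.26 and 0.21 in control and 0.03 and 0.04 in BRG1-wt. The gap between the groups was 0.33 for TBC1D5 and 0.17 for ZNF721. The exon of the pseudogene PMS2P6 fell from 0.33 and 0.54 to 0.03 and 0.05, but its 89 bp are present 6 times in the genome. A region of 1868 bp in LIME1, an adaptor protein gene, is not annotated as an exon of this extent. It had 0.80 and 0.69 in control and 0.42 and 0.41 in BRG1-wt. Low values were also listed for other ATPase groups. PMS2P6 had 0.03 and 0.04 in BRG1-mut, 0.03 in BRM-wt 2, and 0.02 and 0.05 in BRM-mut. LIME1 had 0.42 and 0.44 in BRG1-mut and 0.43 in BRM-wt 1. ZNF721 had 0.06 in BRG1-mut 2 and 0.09 in BRM-mut 1. The TBC1D5 exon was listed for no other group.

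A further set of falls was small but close between replicates. Exon 4 of YBX1 had 0.49 and 0.41 in control and 0.36 and 0.32 in BRG1-wt. Exon 6 of CALD1, which encodes the actin-binding caldesmon, had 0.35 and 0.34 in control and 0.27 and 0.25 in BRG1-wt. Exon 3 of CDCA7, a regulator of DNA methylation, had 0.17 and 0.15 in control and 0.09 and 0.07 in BRG1-wt. In these 3 exons the replicates differed by 0.08 or less within a group. Exon 2 of MRPL3, of the mitochondrial ribosome, had 0.11 and 0.06 in control and 0.03 and 0.02 in BRG1-wt. A 503-bp exon of ACTB, the beta-actin gene, had 0.40 and 0.33 in control and 0.31 and 0.28 in BRG1-wt. Exon 2 of MED20, a Mediator subunit, had 0.99 in both controls and 0.94 and 0.93 in BRG1-wt. The gaps between the groups were 0.03 for MRPL3, 0.02 for ACTB and 0.05 for MED20.

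**Figure D2:**
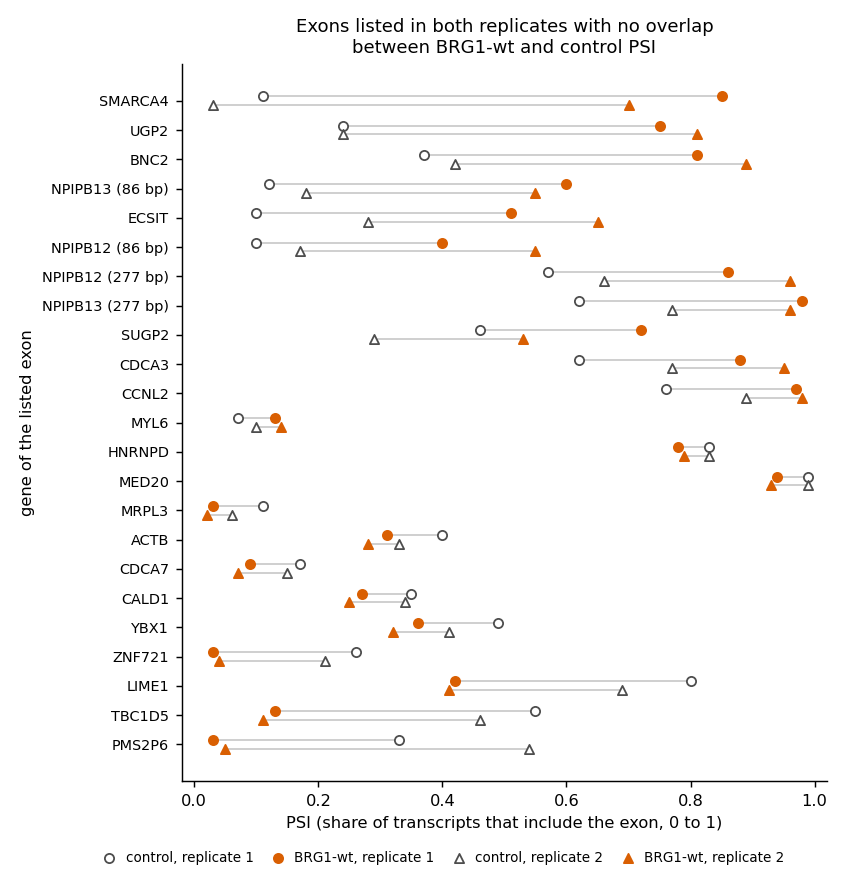
PSI (horizontal axis, 0 to 1) of 23 of the 24 exons listed in both replicates with no overlap between groups, 1 row per exon named by its gene, with open symbols for control, filled symbols for BRG1-wt, circles for replicate 1 and triangles for replicate 2. The 12 upper exons had higher values in both BRG1-wt libraries, from SMARCA4 down to MYL6, and the 11 lower ones had lower values.

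Of the exons that the study followed up, that of MYL6 was listed in both replicates. MYL6 encodes an essential light chain of myosin, and its exon 6 (45 bp) carries the stop codon of the form that includes it. Its PSI was 0.07 in control 1, 0.10 in control 2, 0.13 in BRG1-wt 1 and 0.14 in BRG1-wt 2. The groups did not overlap, and the mean difference of 0.05 was near the difference of 0.03 between the controls. GADD45A, a stress-induced growth arrest gene, was listed in replicate 1 alone, where its coding exon 2 of 102 bp had 0.08 in control 1 and 0.17 in BRG1-wt 1. Control 2, whose value stands in a table of another group, had 0.19, above the BRG1-wt library. The study describes the GADD45A form with exon 2 as the main one in C33A cells, which differs from these low control values. The reason for this difference was not tested. The third gene, MAZ, had no listed exon for BRG1-wt.

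Most listed exons rested on 1 replicate, 559 on replicate 1 and 331 on replicate 2. The largest rises in replicate 1 were in BRCC3 (0.14 in control, 0.96 in BRG1-wt), a deubiquitinase subunit, ZCCHC8 (0.14 and 0.81), of the nuclear exosome targeting complex, the mucin gene MUC20 (0.14 and 0.81), and the long non-coding RNA gene ENSG00000291276 (0.30 and 0.97). The largest falls in replicate 1 were in CEP57L1 (0.87 and 0.11) and KLRG1 (0.86 and 0.11). In replicate 2 the largest rises were in CDC42 (0.19 and 0.93), a small GTPase of cell polarity, exon 3 of the pseudogene PMS2P6 (0.07 and 0.80), and PTS (0.19 and 0.91), an enzyme of tetrahydrobiopterin synthesis, and the largest falls in SEPTIN8 (0.82 and 0.05) and DHRS4L2 (0.76 and 0.05). Of the exons with the largest changes in a single replicate, 4 had a value of the other control library. In 3 of them, all rises, it lay next to the BRG1-wt value, at 0.96 for CDC42, 0.83 for PMS2P6 and 0.93 for ENSG00000291276. For COMMD6, which fell from 0.78 to 0.06 in replicate 1, control 2 had 0.89, on the far side of control 1 from BRG1-wt.

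This use of the second control library was extended to every event for which a table of another group held its PSI. The control PSI of an event was identical in all tables of the same replicate (633 events in replicate 1 and 418 in replicate 2, 0 with differing values). In replicate 1, a value of control 2 was available for 256 of 631 events, and the BRG1-wt library lay beyond both controls in 152 of them (59.4%), between them in 87 and on the other control in 17. In replicate 2, a value of control 1 was available for 102 of 396 events, and BRG1-wt lay beyond both controls in 77 (75.5%), between them in 19 and on the other control in 6. In the events of replicate 1 the control libraries differed by a median of 0.18, against a median BRG1-wt difference of 0.23. In those of replicate 2 they differed by 0.095, against 0.24, and over the 301 distinct events of both by 0.16. These events were listed in some table of each control library, which favours events that vary between libraries. Each was also chosen by the difference of BRG1-wt from its own control, which favours BRG1-wt values beyond both controls. The shares are thus given as a description.

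**Figure D3:**
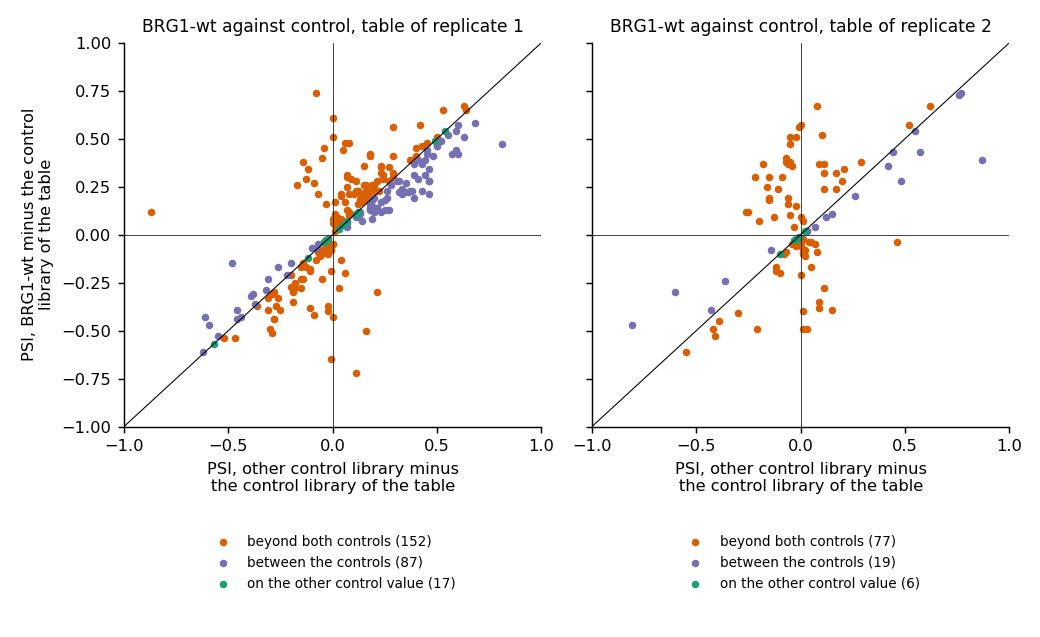
PSI of the BRG1-wt library minus the control library of its table (vertical axis) and PSI of the other control library minus that control library (horizontal axis), 1 point per event, for the tables of replicate 1 (256 events) and replicate 2 (102 events), with the rising line marking equal differences. Violet points, 87 and 19 in number, lie between the controls, and many points of replicate 1 run close to the line.

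By the GENCODE annotation, 907 of the 947 exons had the exact coordinates of an annotated exon, and 883 lay in protein-coding genes. Coding exons were the largest class (460 exons, 48.6%), followed by 5′ UTR exons (130), exons of non-coding transcripts (120), exons of transcripts marked for nonsense-mediated decay (113) and partly coding exons (84). Coding exons had a higher PSI in BRG1-wt in 203 of 309 cases in replicate 1 (65.7%) and in 103 of 173 in replicate 2 (59.5%). Exons in the 5′ UTR were higher in 27 of 72 cases in replicate 1 (37.5%) and in 36 of 63 in replicate 2 (57.1%), so that the replicates fell on different sides of 50%.

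Base composition differed with direction in both replicates. In replicate 1 the exons with a higher PSI had a GC content of 53.6% ± 10.2 (SD, n = 342 exons) and those with a lower PSI 48.7% ± 8.06 (SD, n = 274). In replicate 2 the values were 52.3% ± 9.90 (SD, n = 218) and 48.6% ± 9.22 (SD, n = 170). The difference of 4.89 and 3.70 percentage points was smaller than the SD among exons, and exons of a library are not replicates. With 100 bp of intron on each side the difference was 5.40 and 2.98 points. The GC content also moved with the gene-level values of the same libraries, as given below for the base means, and its part in the PSI differences was not tested. Median exon length was 7 bp larger in higher exons in replicate 1 and 12 bp larger in replicate 2. The share of exons with a length divisible by 3 was 9.57 percentage points larger in higher exons in replicate 1 and 1.58 points smaller in replicate 2, where the higher exons had 47.2% and the lower 48.8%. Pyrimidines made up 73.6% and 71.9% of the 17 intron bases upstream of the acceptor AG and its preceding base in higher and lower exons of replicate 1, and 72.8% and 70.0% in replicate 2.

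Among SWI/SNF subunit genes, 9 exons in 5 genes were listed. The 5 genes include the transfected SMARCA4, for which RNA from the plasmid and from the cell cannot be told apart. Of the 26 genes of this list past the level filter used below for gene levels, 5 had a listed exon (19.2%), beside 6.04% of all genes past it. Apart from SMARCA4, that of PBRM1, which encodes the BAF180 subunit of PBAF, was the one listed in both replicates, with 0.18 in control 1, 0.40 in BRG1-wt 1, 0.54 in control 2 and 0.30 in BRG1-wt 2. The BRG1-wt values lay between the control values and the direction was opposite in the replicates. In BRD9, the subunit that marks the non-canonical complex, 3 exons were listed in replicate 1 with a higher PSI (0.26 and 0.87, 0.35 and 0.88, and 0.78 and 0.96 in control and BRG1-wt). The first 2 are overlapping forms of 513 and 198 bp that share an end. Both belong to transcripts marked for nonsense-mediated decay and are not flanked by both AG and GT. For the 513-bp form, control 2 also had 0.26. A second exon of PBRM1, in the 5′ UTR, had 0.40 in control 2 and 0.78 in BRG1-wt 2. An exon of SS18 (0.24 and 0.14, replicate 2), a further exon of SMARCA4 (0.07 and 0, replicate 2) and an exon of BCL7B (0.98 and 0.88, replicate 1) had lower values. For the SS18 exon control 1 had 0.14, the value of the BRG1-wt library.

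Genes of hnRNP, SR and other splicing regulators had 18 listed exons in 12 genes, 10 with a higher and 7 with a lower PSI and 1 in opposite directions. These were 12 of the 64 genes of the list past the level filter (18.8%), beside the same 6.04% of all genes. Exon 2 of HNRNPD, which encodes an AU-rich element binding protein, was the one with the same direction in both replicates, with 0.83 in both controls and 0.78 and 0.79 in BRG1-wt. A partly coding exon of HNRNPA1 had 0.05 and 0.12 in control and 0.09 and 0.03 in BRG1-wt, in opposite directions, and its 60 bp occur 4 times in the genome. Of those in 1 table, RBM10 had 0.11 in control and 0.47 in BRG1-wt, MBNL1 had 0.04 and 0.22, and SRSF11 had 0.25 and 0.06, all in replicate 1 and with no value of control 2 to set beside them. The core spliceosome list had 2 listed exons (PRPF6 and SNRNP40), other remodellers 2 (BPTF and EP400), the RNA polymerase II list 2 (CDK7 and SUPT16H), and epithelial and mesenchymal genes 2, in ZEB1 (0.20 and 0.70) and ITGB1 (0.94 and 0.45), both in replicate 1. The genes with a listed exon made up 3.85%, 6.06%, 4.44% and 13.3% of these 4 lists past the level filter. For ITGB1 control 2 had 0.64, between control 1 and BRG1-wt.

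For gene levels, the value used was the base mean, the authors' mean of normalised counts over the 4 libraries of a table, 2 of the named group and the 2 controls. Since the same controls enter every table, a gene with a base mean in the table of BRG1-wt above that in the table of BRM-mut had more RNA in the BRG1-wt libraries than in the BRM-mut libraries. The tables were normalised separately, so their ratio was divided by its median over genes (0.975 before this step), and 11894 genes with a mean base mean of at least 100 were compared. A base mean does not show whether both BRG1-wt libraries rose. After the scaling, the BRG1-wt mean is at least the ratio minus 1 times the control mean, so that a ratio above 2 places BRG1-wt above control. In bulk RNA, more cells with the transcript and more transcript per cell cannot be told apart.

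The transfected gene was the check of the labels. The base mean of SMARCA4 was 25802 for BRG1-wt and 29824 for BRG1-mut, against 3864 for BRM-wt and 3076 for BRM-mut, a ratio to BRM-mut of 8.60 and thus at least 7.60 times the control mean. SMARCA2 had 12.6 for BRG1-wt and 9.33 for BRG1-mut, against 59658 and 75591 in the tables of the BRM plasmids. Each ATPase was high where its plasmid was named.

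The markers of cell types gave a mixed picture in the table of BRG1-wt. Of the epithelial markers KRT8 (456), KRT18 (696), EPCAM (24.0), CDH1 (6.27) and KRT19 (1.23), the last 2 had base means near 0. In the table of BRM-mut, KRT8 and KRT18 were lower, at 90.8 and 263. Of the mesenchymal markers, the intermediate filament gene VIM had 12049 in the table of BRG1-wt. THY1 had 713, COL1A2 280, PDGFRB 38.9 and COL1A1 36.5. PTPRC, a leukocyte marker, had 1606 while CD3E, CD14 and LYZ had 8.49 or less. The endothelial markers that could be matched had 9.39 or less and the erythroid ones 0.711 or less.

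The base mean of BRG1-wt was at least 1.5 times that of BRM-mut in 238 of the 11894 genes (2.00%), at least 2 times in 84 (0.706%) and lower by 1.5 times in 2 (0.0168%). The 2 lower genes were SMARCA2, which the BRM plasmid raises in the other table, and CSAG3. Rises and falls are both damped in this measure, since the controls stay in both means. Falls are damped more, because even a full loss in BRG1-wt leaves the control part of the mean, while a rise has no upper limit. The split of 238 against 2 genes therefore does not give the balance of raised and lowered genes. A ratio within 1.5 times therefore does not show an unchanged level in the BRG1-wt libraries. Against the table of BRG1-mut, 128 genes were higher (1.08%) and 272 lower (2.29%), so that the split of the calls turned with the table set beside it. The GC content of the gene moved with the ratio in both cases. Across 11666 genes, which share libraries and are not independent, Spearman's rank correlation of the ratio and the exonic GC content was 0.77 against BRM-mut and -0.66 against BRG1-mut. The 238 genes had a GC content of 55.3% ± 8.71 (SD, n = 237 genes with a value), against 48.1% ± 8.13 over all genes. The part of GC content in the counts was not tested. The 113 genes that were at least 1.5 times higher than in both mutant tables (0.950%) had a GC content of 48.5% ± 6.61 (SD, n = 112), near that of all genes. In the other direction 1 gene was lower than in both mutant tables (0.00841%), CSAG3. The requirement of both tables was added after the values were seen.

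**Figure D4:**
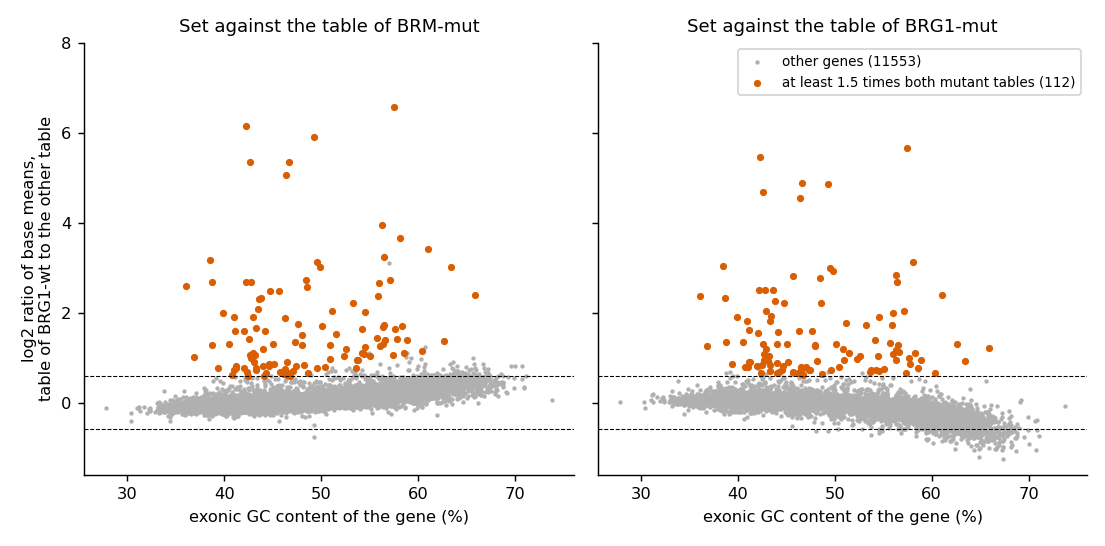
Log2 ratio of the base mean in the table of BRG1-wt to that in the table of BRM-mut (left) or BRG1-mut (right) against the exonic GC content of the gene in percent, 1 point per gene, without SMARCA2, whose ratio lies off the scale, and with dashed lines at 1.5 times in each direction. The grey cloud rises with GC content on the left and falls on the right, and the 112 orange genes, higher than in both, lie at all GC contents from under 40% to over 60%.

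Interferon-stimulated genes, with the keratin KRT80, stood at the top of the ratios. KRT80, a type II keratin, had a base mean of 261 in the table of BRG1-wt, 210 in BRM-wt, 5.05 in BRG1-mut and 2.81 in BRM-mut, a ratio to BRM-mut of 95.3. SP100, a component of PML nuclear bodies, had 278, 282, 6.21 and 4.04 in the same order, a ratio of 70.5. MX1, an antiviral dynamin-like GTPase, had 1943, 1491, 66.0 and 33.2, a ratio of 60.0. In all 3 genes the table of BRG1-wt was within 1.5 times of that of BRM-wt (ratios of 1.20, 0.955 and 1.26) and more than 20 times above those of the mutants. OAS1 and OAS2, which make oligoadenylates in response to double-stranded RNA, had ratios of 40.9 and 33.5, and XAF1, a pro-apoptotic interferon target, had 40.5. IFI6 (15.6), LGALS3BP (10.7), DHX58 (9.47), DDX60L (9.02), CMPK2 (8.76) and ISG15 (8.04), a ubiquitin-like protein, followed, with S100A16 (12.7), a calcium-binding protein, and CPA4 (8.12), a carboxypeptidase. By the bound given above, the BRG1-wt mean of KRT80 was at least 94.3 times the control mean, that of MX1 at least 59.0 times and that of ISG15 at least 7.04 times. The bound of KRT80 rests on a low base mean of 2.81 in the other table. CSAG3, annotated as antisense and so outside the rule for named genes, had a ratio of 0.589. The lowest ratios of protein-coding or long non-coding genes with a symbol after SMARCA2 were those of ABCD2 (0.761), FILNC1 (0.773), FAM151B (0.809) and NEK5 (0.811), all within 1.5 times.

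**Figure D5:**
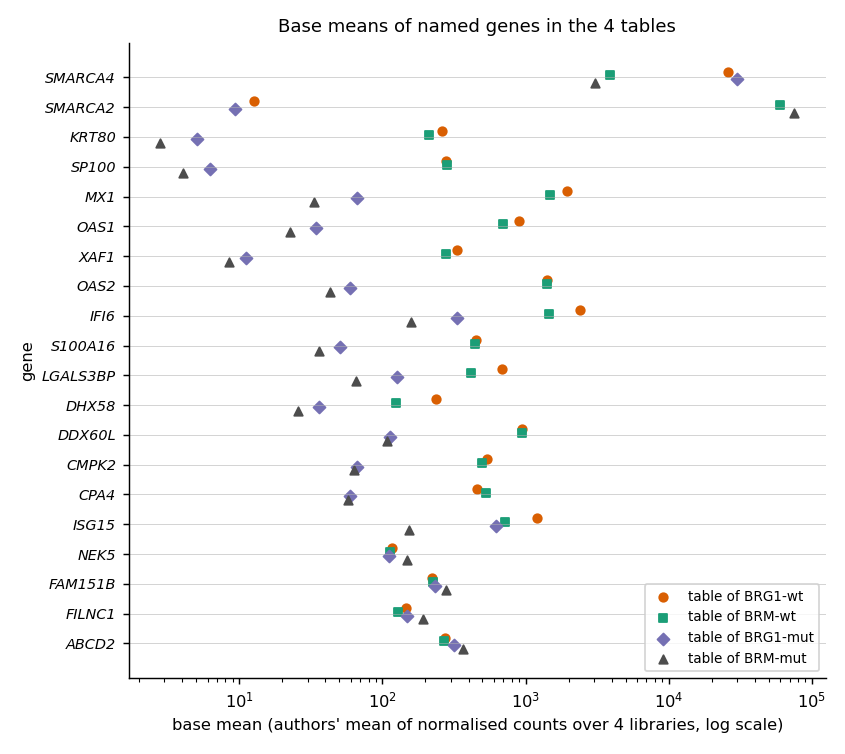
Base means (horizontal axis, log scale, the authors' mean of normalised counts over 2 libraries of the group and 2 control libraries) of SMARCA4, SMARCA2 and the genes with the highest and lowest ratios, 1 symbol per table. From KRT80 to ISG15 the table of BRG1-wt lies above the tables of both mutants, while the genes from NEK5 to ABCD2 have the 4 tables close together.

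The list of interferon-stimulated and RNA-sensing genes, which was drawn up with these values known, had 49 of its 72 genes past the level filter. Of the 49, 44 had a base mean at least 1.5 times that of BRM-mut (beside 2.00% of all genes) and 43 also exceeded that of BRG1-mut by this factor (beside 0.950%), with a median ratio of 3.69 against 1.00 over all genes. A gene could pass the filter through a high level in BRG1-wt alone, so the counts describe the list and carry no further weight. The middle ratio was that of USP18 (3.69), which removes ISG15 from proteins. The sensors of double-stranded RNA IFIH1 and RIGI had base means of 447 and 4371 (BRG1-wt) against 115 and 1205 (BRM-mut). IRF9, a transcription factor of the interferon response, had 216 against 97.4. B2M, at the low end, had a ratio of 1.23, and ADAR, which edits double-stranded RNA, had 1.27. IFNB1, the interferon beta gene, stayed below the filter with 8.92 (BRG1-wt) and 0.962 (BRM-mut). Against the table of BRM-wt, 9 genes were at least 1.5 times higher (0.0757%), SMARCA4 (6.47) and the heat shock gene HSPA6 (6.70) first. Among them were IFI6 (1.59), DHX58 (1.86), ISG15 (1.62), IFI35 (1.68) and NLRC5 (1.69). Across genes, which are not independent, Spearman's rank correlation of this ratio and the exonic GC content was 0.47. These interferon genes had GC contents from 56.0% (NLRC5) to 63.4% (ISG15), against a mean of 48.1% over all genes. The part of GC content in these ratios was not tested.

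Among epithelial and mesenchymal genes, 15 of 33 passed the level filter. Of the 15, 5 had a ratio of at least 1.5 to both mutant tables (beside 0.950% of all genes). Among these were KRT80, KRT8 (5.14), KRT18 (2.71) and S100A4 (4.07), a calcium-binding protein of motile cells. A gene could pass the filter through high levels in the tables of the wild-type ATPases alone. The count therefore describes the list and carries no further weight. The list had a median ratio of 1.21, that of ITGA5, and its lowest was that of ITGB1 (0.891). CD44 and SPARC did not pass the filter and were picked after their values were seen. CD44, a hyaluronan receptor, had 126 in BRG1-wt, 171 in BRM-wt, 8.38 in BRG1-mut and 6.10 in BRM-mut. SPARC, a matrix protein, had 184, 153, 6.18 and 5.54 in the same order. Both were high in the tables of the wild-type ATPases and low in those of the mutants.

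The other lists showed no such shift in these damped ratios. Of 26 SWI/SNF subunit genes past the filter, SMARCA4 and SMARCA2 alone were outside 1.5 times of BRM-mut, with a median of 1.01 and the middle gene BCL7A at 1.00. Per kb of exon, the base mean in the table of BRG1-wt was 1656 for SMARCA4, 1961 for SMARCC1 (BAF155), 1043 for SMARCD1 and 187 for SMARCB1. That of SMARCA4 averages the transfected and the control libraries, so it lies below the level in the BRG1-wt libraries alone. The order of these values is thus not the order within the BRG1-wt libraries. None of the 64 splicing regulators was outside 1.5 times, with a median of 0.954 and values from 0.897 (PTBP3) to 1.30 (RBM10). Of 52 core spliceosome genes, SF3A2 alone had a ratio of at least 1.5 (1.51), and its ratio to BRG1-mut did not reach it. None of 33 other remodeller genes, from CHD9 (0.873) to RUVBL2 (1.38), and none of 45 RNA polymerase II and elongation genes, from TCEA1 (0.895) to POLR2L (1.46), was outside 1.5 times.

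Genes with a listed exon were set beside genes with a higher base mean. Of the 718 genes past the level filter with a listed exon, 9 were among the 238 higher genes. This was 1.25% of the former, beside 2.00% of all genes past the filter. It was 3.78% of the latter, beside 6.04% of all genes with a listed exon. The counts are small and are given as a description. Of the 113 genes higher than in both mutant tables, 4 had a listed exon (beside the same 6.04%), PLSCR1, PML and VLDLR among them. In PLSCR1, a membrane protein induced by interferon, the exon of 26 bp had 0.23 in control 2 and 0.87 in BRG1-wt 2. In PML, which organises nuclear bodies, exon 5 had 0.45 in control 1 and 0.90 in BRG1-wt 1.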

How the data were processed

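RNA of 10 C33A libraries was sequenced on an Illumina HiSeq instrument. The authors mapped reads to GRCh37 with TopHat2 2.0.4, counted genes with HTSeq 0.6.1 with duplicates included, compared groups by DESeq2 (version not given in the sources used here) and estimated splicing by MISO. The deposited PSI is a fraction for each listed event and library, in tables that keep events above a Bayes factor of 10. The base mean is a signal per gene, the authors' mean over 4 libraries of counts divided by size factors, and is printed with no error. The columns of the authors' own comparisons (log2 fold changes, standard errors, test statistics, p-values, Bayes factors and PSI changes) were not used, and a second copy of the BRG1-wt gene table was left aside. Depth per library and per event is unknown.

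Samples were grouped by the plasmid in the labels. Each exon, the middle one of the event, was taken by its coordinates and averaged over its events in a table. Exon class, exon number and sequence are from GENCODE 44 on GRCh37, and exact copies of exons of at least 40 bp were counted in the genome. Of 63152 gene identifiers, 55139 matched a symbol. Named exons are the 10 largest rises and 10 largest falls without overlap, the 5 largest in each direction of a single replicate, those of MYL6, GADD45A and MAZ, and those of listed genes. Named genes are SMARCA4, SMARCA2 and the 15 highest and 5 lowest ratios. Some of the exons and genes so chosen are not reported here. The members and gene lists were chosen with earlier results of these data known. Alternatives were a PSI difference of at least 0.2, the study's rules on short forms and opposite directions, each replicate left out, medians, other windows, filters, folds and tables. The scripts (Python 3.11.15, numpy 2.4.6, scipy 1.17.1, pysam 0.24.0) were tested on simulated data.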

Additional observations from a re-analysis of the deposited data

How the results depend on the processing

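No paired analysis was possible because no result comes from a test that could hold a block, and each PSI difference is already taken within a replicate number. Of 47 alternatives to 10 results, 28 kept the value within its spread or within 1.5 times. The 947 distinct exons became 576 with a PSI difference of at least 0.2, and 388 to 616 with 1 replicate left out. The share of higher exons (55.8%) was 56.6% and 55.3% with a PSI difference of at least 0.2 and without short forms. The GC difference of 4.42 points was 6.02 with medians, and 3.70 to 4.89 with 1 replicate left out. The length difference of 8.5 bp fell to 0.5 bp at a PSI difference of at least 0.2. The difference in the share divisible by 3 (5.27 points) turned to -1.58 without replicate 1 and was 9.57 without replicate 2, so its direction rests on replicate 1. Exons without overlap fell from 24 to 12 (of 27) at a PSI difference of at least 0.2 in both replicates, and the control difference of 0.16 rose to 0.24 at that limit. The 238 higher genes became 610 with a filter of 10, 84 at 2 times, 128 against BRG1-mut, 9 against BRM-wt and 113 against both mutants, the last an alternative chosen after seeing the data. The 2 lower genes became 44, 1, 272, 2 and 1 under the same settings. A total of 184 genes were higher without scaling between tables. The alternatives with fewer exons or a stricter fold follow from their construction, and the cause of the other shifts was not tested. No library could be left out of a base mean. The unknown depth limits every PSI value.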

Other observations

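The 113 genes with a base mean at least 1.5 times that of both mutant tables also held genes outside the lists, of which 5 were picked here after their values were seen. MMP1, an interstitial collagenase, had a base mean of 488 in BRG1-wt, 641 in BRM-wt, 117 in BRG1-mut and 134 in BRM-mut. F3, the tissue factor that starts coagulation, had 436, 581, 121 and 141 in the same order. AXL, a receptor tyrosine kinase, had 310, 260, 115 and 102, and TAGLN, an actin-binding protein of contractile cells, had 1340, 1113, 541 and 417. The long non-coding RNA UCA1 had 689, 707, 99.7 and 107. In these 5 genes the tables of both wild-type ATPases were above those of both mutants.

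HSPA6, a stress-induced HSP70 gene, had another order, with 151 in BRG1-wt, 21.8 in BRM-wt, 89.5 in BRG1-mut and 149 in BRM-mut. The base mean of 21.8 in BRM-wt holds the same controls, which limits their level. The means of BRG1-wt, BRG1-mut and BRM-mut thus lay above that of control. A base mean does not show whether both libraries of a group were high.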
